A study of Homo sapiens with 12 samples.

Results

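The genes described here encode the 5 NF-κB subunits, NFKB1, NFKB2, REL, RELA and RELB, and 5 proteins that restrain or redirect them, NFKBIA, NFKBIE, NFKBIZ, TNFAIP3 and BCL3. They were taken by gene symbol and are 10 of the 59251 genes in the count table. All 10 were among the 13318 genes that passed the filter on low counts, although NFKBIZ passed only through the groups that received ATRA. All 10 exceeded their level in non-treated cells after CDK4/6i+ATRA, where 41% of all tested genes were called higher, from 1.43-fold for RELA to 61.8-fold for BCL3, with a lower bound of 60.4-fold for NFKBIZ. With ATRA alone 9 of them were higher, where 32.1% of all tested genes were, and with CDK4/6i alone 5 were higher and REL was slightly lower, so that 6 of 10 were called where 56.2% of all genes were, which is near the background.

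RNA-Seq was performed in HL60 cells, a line derived from a human acute myeloid leukemia, so that every group was a model of 1 cell line. The 4 groups were non-treated cells, cells given 1 µM ATRA (all-trans retinoic acid, which drives HL60 cells toward granulocytes), cells given palbociclib, an inhibitor of CDK4 and CDK6, at 1 µM (CDK4/6i), and cells given both drugs (CDK4/6i+ATRA), each drug for 48 h. Each group had 3 libraries that the labels call biological replicates, and the study describes its RNA-Seq enrichment results as drawn from independent experiments. A vehicle control was not analysed here.

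NF-κB proteins bind DNA as dimers of the 5 subunits, and IκB proteins hold most of these dimers in the cytoplasm until a kinase complex marks the IκB for destruction. In the canonical branch, RELA or REL pairs with the processed product of NFKB1. In the noncanonical branch, RELB pairs with the processed product of NFKB2. The dimers switch on the genes of their own inhibitors, and NFKB1, NFKB2, REL and RELB are known targets as well, so that the family's transcripts are often read as a record of its activity. In myeloid cells NF-κB drives cytokine, adhesion and survival genes. Transcript levels do not show whether the proteins were in the nucleus, and this was not tested.

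Total counts ranged from 12230923 to 18679544 per library, the smallest being those of CDK4/6i+ATRA at 12230923 to 14415276. Levels are given as TMM-normalised CPM (counts divided by the library size, which edgeR rescales between libraries), on which 3 counts correspond to 0.156 to 0.275 CPM. The myeloid identity of the cells was read from 5 granule protein markers. Their summed level was 6347 to 6681 CPM in non-treated cells, 269 to 323 CPM after ATRA, 3417 to 3545 CPM after CDK4/6i and 25.2 to 34.6 CPM after CDK4/6i+ATRA. Most of this was MPO, while ELANE, PRTN3 and AZU1 had 0 counts in every library and were each listed on a second contig too. Erythroid and epithelial markers lay at or below 3 counts in every group, whereas the B cell marker CD79A was detected in all groups, with the summed B cell list at 12.6 to 25.0 CPM. The T cell list summed to 0.550 to 3.06 CPM, nearly all from CD3E. The granule markers were lowest with CDK4/6i+ATRA, where the NF-κB genes were highest, but the pattern did not hold in every group. Under CDK4/6i the markers fell while NFKB1, RELA and NFKBIE were not called, and under ATRA they fell while RELA was not called. The part of the marker fall in the NF-κB rise was not tested. In bulk RNA, a change in the share of cells that express a gene and a change in the RNA per cell cannot be told apart.

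The promoters of the members show where NF-κB could meet its own genes in sequence. In the RefSeq promoter table (GRCh38.p14, 250 bases before to 50 bases after the start), 8 of the 10 members had an entry, and RELB and NFKBIE had none. The κB consensus was searched on both strands and was found in 6 of these 8 promoters, compared with 5.72% of all 27305 promoters in the table. The looser form GGGNNNNNCC was found in all 8 of them and in 58.0% of all promoters. The following stretches of the coding strand are printed because they hold the κB consensus match, given in capitals, upstream of the start of 5 members that rose with CDK4/6i+ATRA.

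NFKB1: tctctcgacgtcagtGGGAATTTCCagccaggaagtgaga

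REL: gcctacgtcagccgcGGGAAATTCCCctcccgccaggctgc

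NFKBIA: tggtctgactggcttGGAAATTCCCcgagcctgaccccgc

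NFKBIZ: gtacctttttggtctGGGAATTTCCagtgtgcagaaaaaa

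TNFAIP3: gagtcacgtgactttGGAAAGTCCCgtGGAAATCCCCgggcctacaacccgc

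The NFKB1 stretch is chr4:102501295-102501334 on the plus strand, with 39 bases between the match and the start. The REL stretch, chr2:60881512-60881552 on the plus strand, holds 2 overlapping matches, 1 on each strand, 36 bases from the start. The NFKBIA stretch is chr14:35404806-35404845 on the minus strand, 71 bases from the start. The NFKBIZ stretch is chr3:101827752-101827791 on the plus strand and lies farthest from its start, at 213 bases. The TNFAIP3 stretch, chr6:137867177-137867228 on the plus strand, holds 2 separate matches, the nearer 45 bases from the start. NFKB1 and NFKBIZ carried the same 10 bases although their levels differed widely in every group. The BCL3 match lay after the start, and the promoters of NFKB2 and RELA held the looser form only. These matches describe letters in a window and are not evidence of binding. The RefSeq start was the start in the count table for NFKB1, NFKB2, REL, NFKBIA and NFKBIZ, and it differed by 941 bases for RELA, 910 bases for TNFAIP3 and 1003 bases for BCL3.

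The comparison of single drugs and their combination with non-treated cells asked how far each drug moved the family. In the quasi-likelihood test of edgeR, with p-values adjusted by Benjamini-Hochberg over 13318 genes, 9 of the 10 members were higher with ATRA, where 67.6% of all tested genes were called in either direction and 32.1% were called higher. With CDK4/6i, 5 members were higher and 1 was lower, where 56.2% of all tested genes were called, 28.3% higher and 27.9% lower. With CDK4/6i+ATRA all 10 were higher than in non-treated cells, where 81.7% of all genes were called and 41% were called higher. All 10 were also higher than with CDK4/6i alone, where 78.6% of genes were called and 39.1% were higher, and higher than with ATRA alone, where 69.8% were called and 36.9% were higher. These counts include NFKBIZ, which reached the test only through the groups where it is high, and among the other 9 members 8 were higher after ATRA, 5 after CDK4/6i and 9 after the combination. The median log2 fold change of those 9 was 1.00 after ATRA, 0.23 after CDK4/6i and 2.52 after CDK4/6i+ATRA, while the medians of all tested genes were -0.03, 0.02 and 0.02. These comparisons with non-treated cells share the same 3 control libraries.

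**Figure D1:**
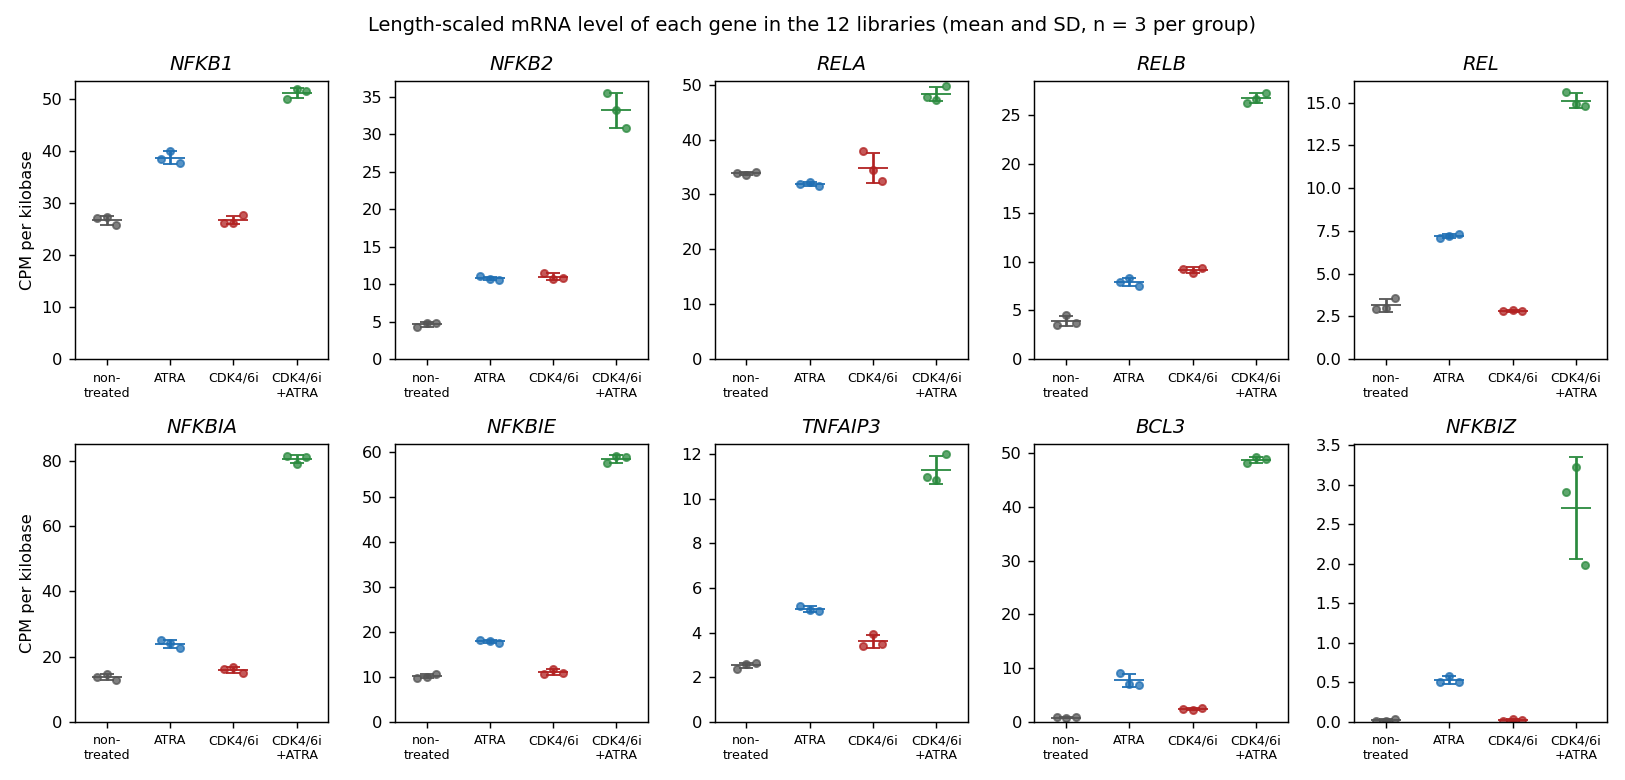
Level of each of the 10 genes in CPM per kilobase of exon, 1 panel per gene with its own linear axis from 0, with 3 libraries per group as points and the mean and SD as bars. The CDK4/6i+ATRA libraries lay above those of every other group for each gene.

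Among the subunits, RELA and NFKB1 were the most abundant per kilobase of exon in every group, and had the smallest fold changes with CDK4/6i+ATRA. RELA encodes the main activating partner of the canonical dimer (chr11:65653601-65662916, minus strand, hg38). RELA stood at 92.3, 91.1 and 92.4 CPM in non-treated cells, 86.6, 87.5 and 85.5 CPM after ATRA, 103, 93.3 and 88.0 CPM after CDK4/6i and 129.7, 128 and 135 CPM after CDK4/6i+ATRA. The ATRA libraries lay just below the non-treated ones, the CDK4/6i libraries spread around them, and the CDK4/6i+ATRA libraries stood apart. RELA was called higher with both drugs, by 0.51 on the log2 scale (SE 0.0466, adjusted p = 3.9e-14). With ATRA its log2 fold change was -0.09 (95% interval -0.19 to 0.02, adjusted p = 0.0936), and with CDK4/6i it was 0.04 (-0.06 to 0.15, adjusted p = 0.429).

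NFKB1 encodes the precursor of the DNA-binding partner of RELA (chr4:102501359-102617302, plus strand). Its levels were 119, 119 and 112 CPM in non-treated cells and 115, 115 and 121 CPM with CDK4/6i, against 168, 175 and 164 CPM with ATRA and 219, 227 and 225 CPM with CDK4/6i+ATRA. The non-treated and CDK4/6i libraries overlapped, and both groups that received ATRA lay above them. NFKB1 rose 1.45-fold with ATRA (log2 0.54, SE 0.0397, adjusted p = 6.4e-17) and 1.92-fold with CDK4/6i+ATRA (log2 0.94, SE 0.0401, adjusted p = 1.1e-26). With CDK4/6i alone its log2 fold change was 0.00 to 2 decimals, with a 95% interval of -0.0942 to 0.0942 and an adjusted p of 1.

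REL encodes the subunit typical of lymphoid and myeloid cells (chr2:60881574-60931612, plus strand). It stood at 32.9, 33.5 and 40.7 CPM in non-treated cells, 80.5, 81.7 and 82.6 CPM after ATRA, 31.6, 32.5 and 31.7 CPM after CDK4/6i and 177, 169 and 168 CPM after CDK4/6i+ATRA. Non-treated replicate 3 stood above its group, and the CDK4/6i libraries lay just below all 3 non-treated ones. REL rose 2.28-fold with ATRA (log2 1.19, SE 0.0562, adjusted p = 2.0e-24) and 4.79-fold with CDK4/6i+ATRA (log2 2.26, SE 0.0544, adjusted p = 2.5e-37). REL was the only member called lower with CDK4/6i, at a log2 fold change of -0.16 (SE 0.0633, adjusted p = 0.0239). That call rested on single libraries: without non-treated replicate 3 the value was -0.06 (adjusted p = 0.487), and it was also lost without CDK4/6i replicate 1 (adjusted p = 0.0526) or CDK4/6i replicate 3 (adjusted p = 0.0606).

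The noncanonical partners NFKB2 and RELB responded to both drugs. NFKB2 (chr10:102394110-102402529, plus strand) stood at 16.0, 18.2 and 18.0 CPM in non-treated cells, 41.6, 40.2 and 39.9 CPM after ATRA, 43.4, 40.2 and 40.9 CPM after CDK4/6i and 134, 125 and 116 CPM after CDK4/6i+ATRA. RELB (chr19:45001464-45038192, plus strand) stood at 9.14, 11.7 and 9.57 CPM, 20.5, 21.5 and 19.4 CPM, 24.0, 22.9 and 24.3 CPM, and 68.1, 69.2 and 70.7 CPM in the same order. For both genes the non-treated libraries were lowest, the single-drug libraries lay in between and the CDK4/6i+ATRA libraries were highest, with no overlap between these 3 tiers. NFKB2 rose 2.32-fold with ATRA (log2 1.22, SE 0.0693, adjusted p = 3.3e-21), 2.38-fold with CDK4/6i (log2 1.25, SE 0.0689, adjusted p = 2.2e-21) and 7.17-fold with both (log2 2.84, SE 0.0634, adjusted p = 9.0e-39). RELB rose 2.03-fold with ATRA (log2 1.02, SE 0.0887, adjusted p = 1.7e-14), 2.35-fold with CDK4/6i (log2 1.23, SE 0.0864, adjusted p = 2.2e-17) and 6.86-fold with both (log2 2.78, SE 0.0788, adjusted p = 2.8e-34). NFKB2 and RELB were also close to one another over the 3 treated groups, with a root-mean-square difference of their log2 fold changes of 0.121.

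Among the inhibitors, NFKBIA and NFKBIE encode the IκB proteins IκBα and IκBε, which bind the dimers in the cytoplasm. NFKBIA (chr14:35401513-35404749, minus strand) stood at 21.5, 22.6 and 19.8 CPM in non-treated cells, 39.3, 37.4 and 35.4 CPM after ATRA, 25.2, 26.2 and 23.3 CPM after CDK4/6i and 127, 123 and 126 CPM after CDK4/6i+ATRA. NFKBIE (chr6:44258166-44265551, minus strand) stood at 23.0, 23.4 and 25.0 CPM, 42.6, 42.3 and 41.0 CPM, 24.8, 27.6 and 25.6 CPM, and 135, 138 and 138 CPM in the same order. Both genes were raised moderately by ATRA and most by the combination, and the CDK4/6i libraries lay close to the non-treated ones, overlapping them for NFKBIE. NFKBIA rose 1.75-fold with ATRA (log2 0.81, SE 0.0666, adjusted p = 2.4e-15) and 5.90-fold with CDK4/6i+ATRA (log2 2.56, SE 0.0605, adjusted p = 1.1e-37). NFKBIE rose 1.76-fold with ATRA (log2 0.82, SE 0.0612, adjusted p = 9.5e-17) and 5.75-fold with CDK4/6i+ATRA (log2 2.52, SE 0.056, adjusted p = 7.3e-39). With CDK4/6i alone, NFKBIA rose by a log2 value of 0.23 (SE 0.0705, adjusted p = 0.00515), which was 0.17 without non-treated replicate 3 (adjusted p = 0.0550). NFKBIE under CDK4/6i had a log2 fold change of 0.13, with a 95% interval of -0.03 to 0.28 and an adjusted p of 0.101. These IκB genes were the most alike pair of the family, with a root-mean-square difference of 0.0625.

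TNFAIP3 encodes a ubiquitin-editing enzyme that shuts off signals upstream of the IκB kinase (chr6:137866349-137883312, plus strand). It stood at 14.8, 16.1 and 16.4 CPM in non-treated cells, 32.5, 31.4 and 30.9 CPM after ATRA, 21.2, 24.7 and 21.8 CPM after CDK4/6i and 68.7, 67.8 and 74.9 CPM after CDK4/6i+ATRA. The 4 groups did not overlap, and their order was non-treated, CDK4/6i, ATRA and CDK4/6i+ATRA. TNFAIP3 rose 2.00-fold with ATRA (log2 1.00, SE 0.0756, adjusted p = 1.2e-16), 1.43-fold with CDK4/6i (log2 0.51, SE 0.0792, adjusted p = 2.3e-07) and 4.47-fold with both (log2 2.16, SE 0.0716, adjusted p = 2.4e-31). It shares 894 bases with the opposite-strand gene WAKMAR2, for which 18 counts were found in all libraries together, and 6021 for TNFAIP3.

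BCL3 and NFKBIZ encode IκB-like proteins that act in the nucleus, where they join dimers on DNA and can raise or lower transcription. BCL3 (chr19:44747705-44760044, plus strand) stood at 2.16, 1.69 and 2.25 CPM in non-treated cells, 23.9, 18.4 and 17.7 CPM after ATRA, 6.07, 5.62 and 6.44 CPM after CDK4/6i and 125, 128 and 127 CPM after CDK4/6i+ATRA. The counts behind these levels were 27 to 40 per library in non-treated cells and 1367 to 1541 with CDK4/6i+ATRA, and no groups overlapped. BCL3 had the largest fitted rise of the members with counts above the floor in every group, at 9.71-fold with ATRA (log2 3.28, SE 0.132, adjusted p = 3.2e-27), 2.95-fold with CDK4/6i (log2 1.56, SE 0.168, adjusted p = 2.7e-11) and 61.8-fold with both (log2 5.95, SE 0.103, adjusted p = 2.1e-43).

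NFKBIZ (chr3:101827990-101861022, plus strand) was at or below 3 counts in every non-treated and CDK4/6i library, with 1, 1 and 3 counts in the former and 1, 2 and 2 counts in the latter. It reached 2.10, 2.45 and 2.10 CPM with ATRA (34, 42 and 38 counts) and 12.2, 13.5 and 8.35 CPM with CDK4/6i+ATRA (133, 152 and 101 counts). NFKBIZ was therefore above 3 counts in the 6 libraries that received ATRA and in no other. Set against the floor of 3 counts per library, NFKBIZ was at least 11.8-fold higher with ATRA and at least 60.4-fold higher with CDK4/6i+ATRA than in non-treated cells. No p-value is given for these rises, since the gene passed the filter only through the groups where it is high. Against CDK4/6i alone, the combination was at least 62.0-fold higher. NFKBIZ shares 195 exonic bases on the same strand with NXPE3, for which the libraries together held 8130 counts and 510 for NFKBIZ, and reads from these bases could be assigned to either gene.

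**Figure D2:**
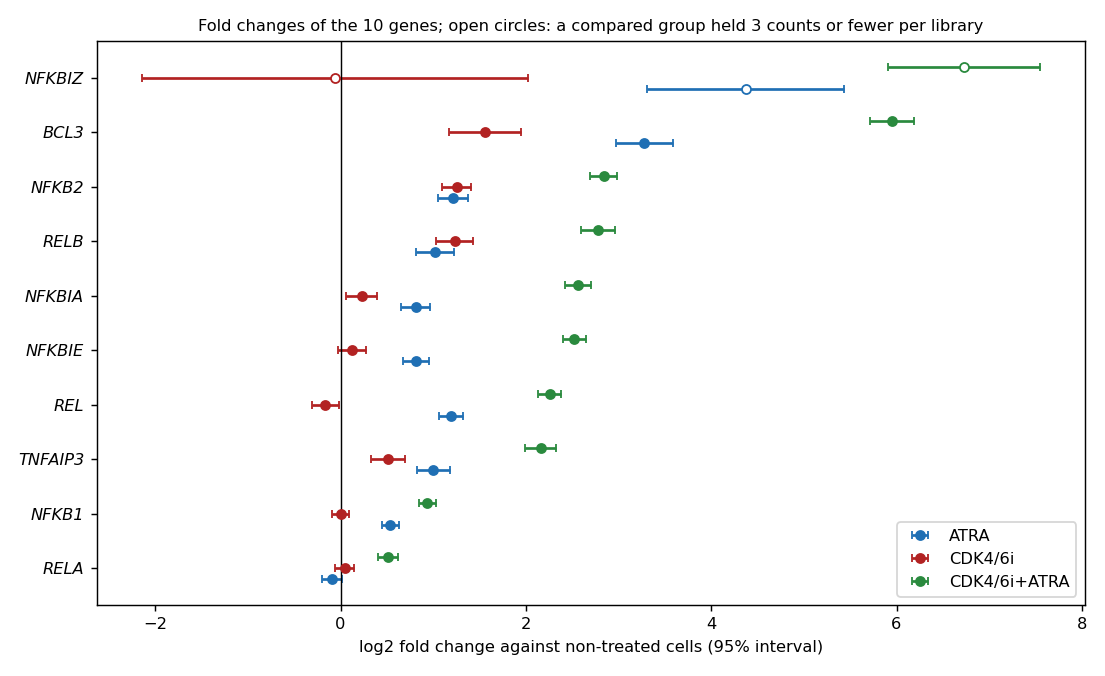
Fitted log2 fold change of each gene against non-treated cells for ATRA, CDK4/6i and CDK4/6i+ATRA, with 95% intervals as bars, in which open circles mark a value that involves a group at or below 3 counts. All 10 CDK4/6i+ATRA points lay to the right of 0, from 0.51 for RELA upward, and the CDK4/6i points of NFKB1, RELA, NFKBIE and NFKBIZ had intervals that included 0.

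The next comparison asked whether the effect of ATRA was larger when CDK4/6 was inhibited. For the combination against CDK4/6i alone, the log2 fold changes were 4.39 for BCL3, 2.42 for REL, 2.40 for NFKBIE, 2.33 for NFKBIA, 1.65 for TNFAIP3, 1.59 for NFKB2, 1.55 for RELB, 0.94 for NFKB1 and 0.47 for RELA. For the combination against ATRA alone, they were 2.67 for BCL3, 2.35 for NFKBIZ, 1.76 for RELB, 1.75 for NFKBIA, 1.71 for NFKBIE, 1.62 for NFKB2, 1.16 for TNFAIP3, 1.07 for REL, 0.60 for RELA and 0.40 for NFKB1. Apart from NFKBIZ, whose value is given without a test, every one of these passed edgeR's test.

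The interaction of the drugs, which is the log2 effect of ATRA with CDK4/6i minus its effect without, was positive and called in edgeR's quasi-likelihood test for all 9 members other than NFKBIZ, where 51.4% of all genes were called and 24.5% were positive. The IκB genes had the largest well-measured interactions, at 1.58 for NFKBIE (SE 0.0838, adjusted p = 9.0e-22) and 1.52 for NFKBIA (SE 0.0904, adjusted p = 7.2e-20). REL followed at 1.23 (SE 0.0801, adjusted p = 1.8e-18) and BCL3 at 1.11 (SE 0.203, adjusted p = 7.7e-06). TNFAIP3 at 0.64 (SE 0.103, adjusted p = 5.5e-07), RELA at 0.56 (SE 0.0657, adjusted p = 4.7e-10), RELB at 0.53 (SE 0.114, adjusted p = 1.0e-04), NFKB1 at 0.40 (SE 0.0563, adjusted p = 3.2e-08) and NFKB2 at 0.37 (SE 0.0904, adjusted p = 4.7e-04) were smaller. The NFKBIZ value of 2.41 (SE 1.04) was also positive, but it compares 2 groups at the floor in a gene that passed the filter through the others, and it missed the threshold when any library other than ATRA replicate 2 or CDK4/6i+ATRA replicate 3 was left out (1.78 to 2.64, adjusted p up to 0.345). The interactions of different genes were not tested against each other.

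The interaction depended on how libraries were scaled. With library size alone in place of TMM, the median interaction of all genes moved from -0.02 to -0.34, and of the 9 members other than NFKBIZ 6 were called in place of 9. The interactions of NFKB1 (0.08, adjusted p = 0.204), NFKB2 (0.06, adjusted p = 0.651) and RELB (0.21, adjusted p = 0.122) were then not called, while those of NFKBIE (1.26), NFKBIA (1.20), REL (0.92), BCL3 (0.79), TNFAIP3 (0.33, adjusted p = 0.00814) and RELA (0.24, adjusted p = 0.00213) were called at lower values. Under the same scaling the 9 members other than NFKBIZ were still called higher with CDK4/6i+ATRA than in each of the other groups, but the smallest differences shrank. NFKB1 against ATRA alone went from 0.40 to 0.10 (adjusted p = 0.0250), RELA against ATRA alone from 0.60 to 0.29, RELA against CDK4/6i alone from 0.47 to 0.19 and RELA against non-treated cells from 0.51 to 0.25.

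**Figure D3:**
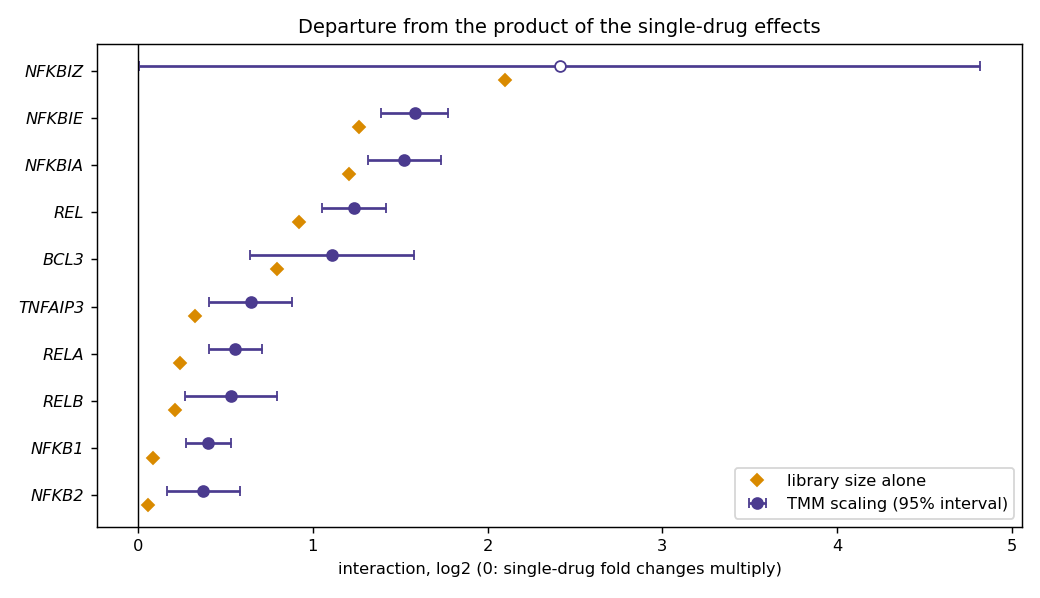
Interaction of ATRA and CDK4/6i for each gene on the log2 scale, as circles with 95% intervals for TMM scaling (open for NFKBIZ, with groups at or below 3 counts) and as diamonds for library size alone. After NFKBIZ, NFKBIE and NFKBIA lie farthest from 0 at 1.58 and 1.52, and the diamonds of NFKB1 and NFKB2 lie nearest to 0 at 0.08 and 0.06.

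Levels of different genes were compared as CPM per kilobase of exon. In non-treated cells the order was RELA at 33.8 ± 0.254 (SD, n = 3), NFKB1 at 26.7 ± 0.857, NFKBIA at 13.7 ± 0.928 and NFKBIE at 10.2 ± 0.451. NFKB2 at 4.62 ± 0.321, RELB at 3.91 ± 0.522 and REL at 3.15 ± 0.383 followed, and neighbours among these overlapped. TNFAIP3 at 2.52 ± 0.130, BCL3 at 0.782 ± 0.115 and NFKBIZ at 0.0232 ± 0.0148 were lowest. Subunits thus outranked their inhibitors at the top of the list in non-treated cells.

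With CDK4/6i+ATRA the IκB genes stood at the top of this order, which rests on dividing by the deposited gene length. NFKBIA led at 80.5 ± 1.29 CPM per kilobase (SD, n = 3), followed by NFKBIE at 58.5 ± 0.848, NFKB1 at 51.1 ± 0.969, BCL3 at 48.7 ± 0.584 and RELA at 48.3 ± 1.32, the last 2 overlapping. NFKB2 at 33.2 ± 2.36, RELB at 26.8 ± 0.512, REL at 15.1 ± 0.443, TNFAIP3 at 11.3 ± 0.616 and NFKBIZ at 2.71 ± 0.643 did not overlap one another. In CPM, without that division, NFKB1 came first at 223, followed by REL at 171, NFKBIE at 137, RELA at 131, BCL3 at 127.0 and NFKBIA at 125.5. BCL3 lay close to RELA on both scales. With ATRA alone NFKB1 led at 38.7 ± 1.21, ahead of RELA at 31.9 ± 0.357, and RELB, BCL3 and REL lay between 7.19 and 7.90 CPM per kilobase with overlap between neighbours. With CDK4/6i alone RELA at 34.9 ± 2.76 and NFKB1 at 26.7 ± 0.808 led as in non-treated cells, and NFKBIE at 11.1 ± 0.611 overlapped NFKB2 at 10.99 ± 0.437.

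The summed level of the 5 subunits was 72.2 ± 0.758 CPM per kilobase in non-treated cells (SD, n = 3), 96.4 ± 1.93 after ATRA, 84.5 ± 2.65 after CDK4/6i and 174.4 ± 0.664 after CDK4/6i+ATRA. Within this sum, RELA made up 46.9% in non-treated cells, 33.1% after ATRA, 41.2% after CDK4/6i and 27.7% after CDK4/6i+ATRA. NFKB2 rose from 6.40% to 11.2%, 13.0% and 19.0%, and RELB from 5.41% to 8.20%, 10.8% and 15.4%, in the same order. REL was at 4.36% in non-treated cells, 7.47% after ATRA, 3.34% after CDK4/6i and 8.66% after CDK4/6i+ATRA, and NFKB1 was at 37.0%, 40.1%, 31.6% and 29.3%. For all 15 comparisons of a share with non-treated cells the libraries did not overlap, which gives an exact two-sided permutation p of 0.1 (0.1 after adjustment over 15), the smallest that 3 against 3 libraries allow. Shares do not depend on scaling between libraries, but they do depend on gene length: as shares of counts, NFKB1 was at 42.9% in non-treated cells and 42.4% with ATRA, and REL at 13.1% and 20.5%.

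**Figure D4:**
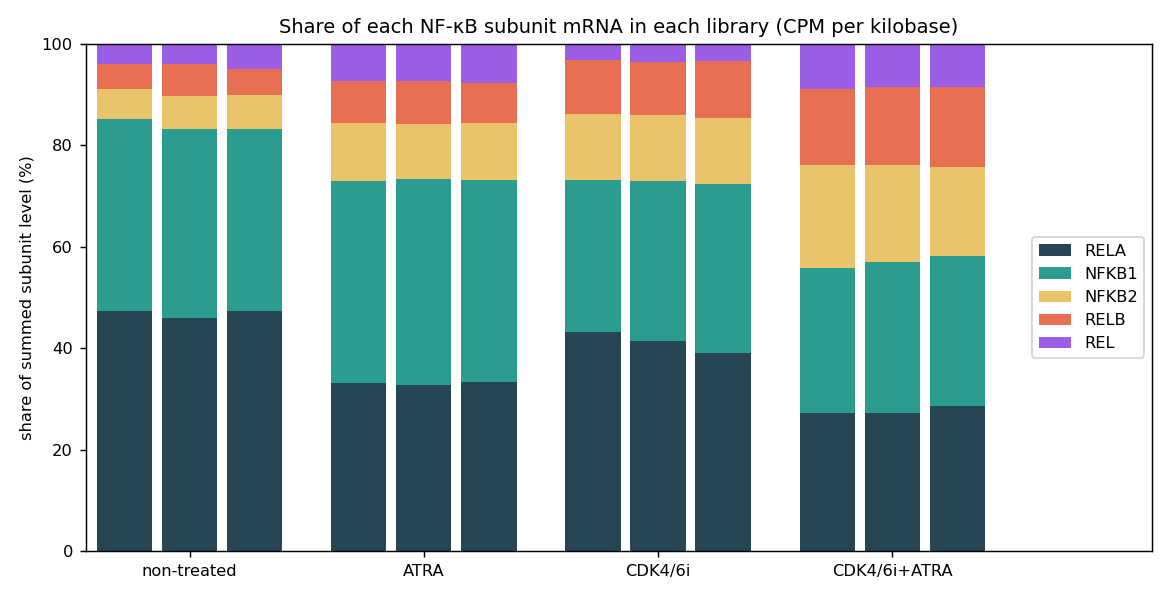
Share of each of the 5 subunits in their summed CPM per kilobase, in percent, as 1 stacked bar per library with 3 libraries per group. The RELA share falls from 46.9% in non-treated cells to 27.7% with CDK4/6i+ATRA, while the shares of NFKB2 and RELB are highest with both drugs.

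Ratios within a library, which scaling between libraries cannot alter but whose size depends on gene length, were taken for 5 pairs chosen after the levels were seen. The ratio of NFKBIA to RELA per kilobase was 0.404 ± 0.0301 in non-treated cells (SD, n = 3), 0.752 ± 0.0352 after ATRA, 0.459 ± 0.0311 after CDK4/6i and 1.67 ± 0.0370 after CDK4/6i+ATRA. That of NFKBIE to RELA was 0.300 ± 0.0125, 0.563 ± 0.00743, 0.320 ± 0.0348 and 1.21 ± 0.0335. Per kilobase, both inhibitor transcripts were thus below RELA in 3 groups and above it in all CDK4/6i+ATRA libraries, whereas in CPM the mean of NFKBIA stayed below that of RELA. The ratio of RELB to RELA went from 0.116 ± 0.0163 to 0.248 ± 0.00976, 0.264 ± 0.0233 and 0.555 ± 0.00886, and that of NFKB2 to NFKB1 from 0.173 ± 0.0150 to 0.278 ± 0.0108, 0.412 ± 0.0235 and 0.650 ± 0.0565, so that both of these ratios were higher under each drug. REL to RELA was 0.0930 ± 0.0110, 0.226 ± 0.00482, 0.0812 ± 0.00660 and 0.313 ± 0.0150. Of the 15 exact two-sided permutation tests against non-treated cells, 12 gave p = 0.1, the smallest possible (0.125 after adjustment over 15), and those of NFKBIA to RELA (p = 0.2), REL to RELA (p = 0.2) and NFKBIE to RELA (p = 0.4) under CDK4/6i did not separate the groups.

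For the 3 members with the widest range of levels, the most similar genes were sought among 9291 tested genes with a mean of at least 5 CPM, by the root-mean-square difference of the log2 fold changes over the 3 treated groups. BCL3 was closest to BAG3 (0.122), TLR1 (0.270) and SGK1 (0.288), NFKB2 to TTYH3 (0.0526), FUCA1 (0.104) and LGALS1 (0.113), and NFKBIZ to HBEGF (0.390), NLRC4 (0.428) and CD300LB (0.431). The NFKBIZ distances rest on fitted values against groups at the floor.

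The other genes of the pathway were taken from 5 lists compiled by hand, and were counted for the combination against non-treated cells, where 81.7% of all tested genes were called and 41% were higher. The shares called were 90.9% for kinases, 90% for adaptors, 76.9% for other inhibitors, 92.3% for ligands and receptors and 100% for targets. These shares include genes that reached the test only through groups where they are high, and nothing particular to a list is read from them. With library size alone the median of all tested genes for this comparison moved from 0.02 to -0.25. The list medians below are given for TMM only. The kinase list also held IKBKG, TAB1, TAB2 and TAB3, which encode partners of kinases rather than kinases. Of its 11 genes, 8 were higher, 2 were lower and 1 was not called, with a median log2 fold change of 0.45. MAP3K8, a kinase that the NFKB1 precursor holds inactive, went from 13.0 to 39.8 CPM (log2 1.61), and TAB2, which links ubiquitin chains to the kinase TAK1, from 54.9 to 159 CPM (log2 1.54). TAB1, an activator of TAK1, fell from 38.8 to 19.5 CPM (log2 -0.996), and MAP3K14, the kinase of the noncanonical branch, from 8.35 to 5.85 CPM (log2 -0.52, adjusted p = 0.00606). The MAP3K14 call rested on 1 library, since without CDK4/6i+ATRA replicate 2 the value was -0.41 (adjusted p = 0.0501). With library size alone, the calls of CHUK and IKBKB as higher were lost and both values turned slightly negative (-0.09 each).

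The adaptor list also held the kinases RIPK1, RIPK2, IRAK1 and IRAK4. Of its 20 tested genes, 14 were higher, 4 were lower and 2 were not called, with a median of 0.71. IRAK2, a kinase-like adaptor of receptor complexes, stood at 0.0789 CPM in non-treated cells, below the floor, and 20.7 CPM with CDK4/6i+ATRA, at least 110.1-fold higher, and TRAF1, an adaptor of tumor necrosis factor receptors, went from 0.672 to 17.8 CPM (log2 4.70). TRAF2, an adaptor of the same receptors that helps to degrade MAP3K14, fell from 35.1 to 11.5 CPM (log2 -1.61), and IRAK3, which restrains signals from Toll-like receptors, fell from 79.0 to 55.9 CPM (log2 -0.50). Of 13 tested other inhibitors, 9 were higher, 1 was lower and 3 were not called, with a median of 1.12. With library size alone 4 were lower, as OTULIN, TAX1BP1 and COMMD1 were then called too. NFKBID, another nuclear IκB-like protein, went from 3.97 to 39.7 CPM (log2 3.32), and ZC3H12A, a nuclease that degrades cytokine transcripts, from 8.02 to 37.9 CPM (log2 2.23). NFKBIB, which encodes IκBβ, fell from 68.7 to 54.4 CPM (log2 -0.34), unlike the genes for IκBα and IκBε.

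Of 13 tested ligands and receptors, 10 were higher, 2 were lower and 1 was not called. Their median of 2.11 includes TNF, TLR8 and IL1A, which reached the test only through groups where they are high. TNF, which is listed on 8 contigs so that its level could not be judged, TLR8 and IL1A had 1 to 6 counts in each non-treated library, and of the 10 genes with at least 10 counts in every library 7 were higher. The cytokine genes IL1A and IL1B went from 0.235 to 238 CPM (log2 9.91) and from 4.31 to 1451 CPM (log2 8.39). TNFSF13B, the ligand BAFF, fell from 72.6 to 13.6 CPM (log2 -2.41), and LTBR, a receptor that feeds the noncanonical branch, from 56.3 to 45.1 CPM (log2 -0.32). Of 17 tested target genes, 14 were higher and 3 were lower. Their median of 3.22 includes genes with fewer than 10 counts in some libraries, ICAM1 and CSF1 among them. Of the 12 with at least 10 counts in every library, which leaves out ICAM1 (9 to 10 counts per non-treated library) and CSF1 (3 to 8 counts), 9 were higher. The adhesion gene ICAM1 went from 0.576 to 1063 CPM (log2 10.83) and the growth factor gene CSF1 from 0.353 to 174 CPM (log2 8.90). GADD45B, a stress-response gene, fell from 23.2 to 1.54 CPM (log2 -3.90), and SOD2, a mitochondrial antioxidant enzyme, from 94.6 to 35.6 CPM (log2 -1.41), so the listed targets did not move as 1 block. The remaining 10 listed targets were too low to test. Of these, CCL3, CCL4, CCL5 and IER3 were each also listed on further contigs, so that their levels could not be judged. The others were listed on 1 contig and stayed near 0 in every group. Over the 12 libraries together, CXCL1, CXCL10 and VCAM1 had 0 counts, PTGS2 had 3, IL6 had 4 and CXCL2 had 13.

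With TMM scaling the interaction was positive and called for 7 of 11 genes in the kinase list (1 negative). The same held for 9 of 20 adaptors (1 negative) and 7 of 13 other inhibitors (1 negative). It also held for 4 of 13 ligands and receptors (4 negative) and 7 of 17 targets (3 negative). The median interactions were 0.31, 0.22, 0.56, 0.15 and 0.43 in that order, beside 0.64 for the 9 members other than NFKBIZ and -0.02 for all tested genes. The list values keep genes with a group at or below 3 counts: 1 adaptor, 2 ligands and receptors and 1 target. They are therefore not like for like with the member median, which leaves NFKBIZ out. Over all tested genes 51.4% of interactions were called and 24.5% were positive, while the shares called in the lists were 72.7%, 50%, 61.5%, 61.5% and 58.8% in the same order. No test of the difference between these lists was made. With library size alone the median interaction of all genes moved to -0.34, and 18.5% of called interactions were positive in place of 47.5%. The list counts and medians are given for TMM only, so their signs may depend on the scaling.

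**Figure D5:**
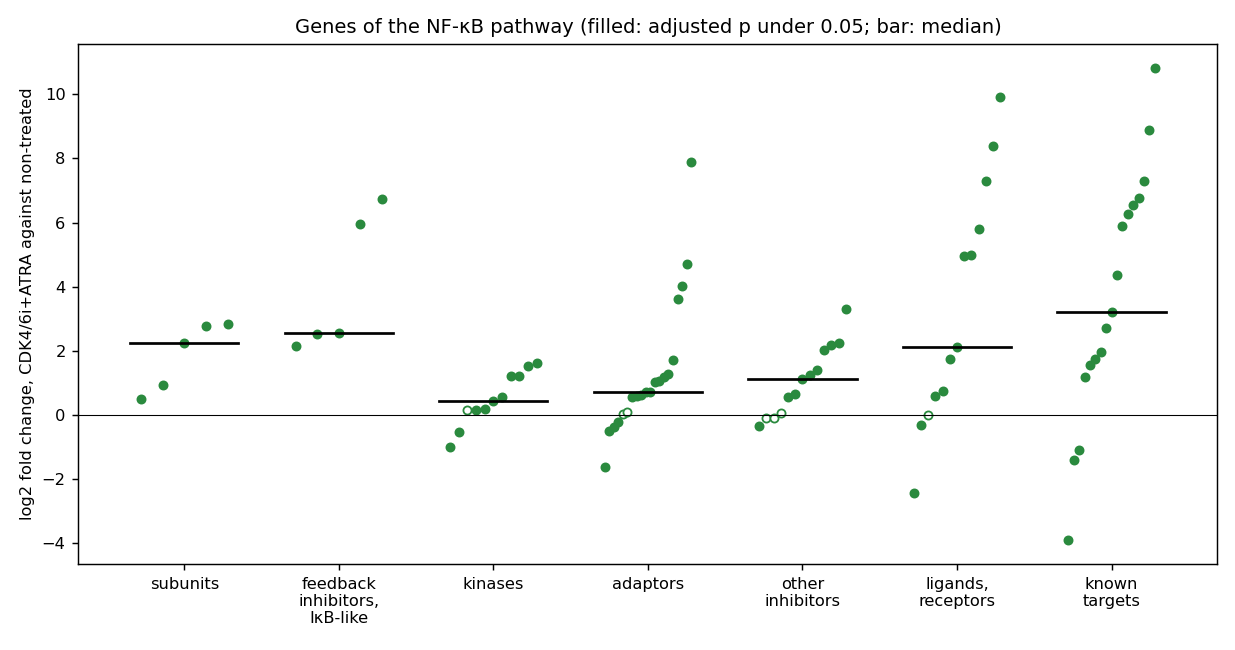
Log2 fold change of CDK4/6i+ATRA over non-treated cells for the subunits, the inhibitors and every tested gene of the 5 pathway lists, 1 point per gene, filled where called, with the median of each list as a bar. All 10 members lie above 0, while each of the 5 lists holds genes on both sides of 0. With TMM scaling the list medians run from 0.45 for the kinase list to 3.22 for the targets. Those of the adaptors, of the ligands and receptors and of the targets include genes with few counts in non-treated cells.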

How the data were processed

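The 12 libraries were grouped by their labels. The authors trimmed reads with Trimmomatic 0.33, aligned them with STAR 2.7.11a to hg38 and deposited raw counts per RefSeq gene, without normalization. The study names RSEM for the counting, whereas the deposited table has the layout of featureCounts and whole numbers, so how reads in overlapping genes such as NFKBIZ and NXPE3 were assigned is not known. The kit was directional, and the strand setting of the counting is not given in the sources used here. The members and gene lists were chosen with earlier results of these data known. Low genes were removed by filterByExpr given the 4 groups, and the rest were scaled by TMM and fitted with edgeR 4.0.16 (R 4.3.3) in 1 quasi-likelihood model of the 4 groups leaving 8 residual degrees of freedom. Adjustment (Benjamini-Hochberg) ran over all 13318 tested genes at a threshold of 0.05. The p-values measure the spread between these libraries.

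All 10 members were named. From each pathway list, up to 2 largest rises and 2 largest falls among called genes with a mean of at least 5 CPM were named, and for the 3 members with the widest range, the 3 most similar genes. CHUK, IKBKB, IKBKG, TAB3, RIPK1, RIPK2, IRAK1, IRAK4, SHARPIN, CARD9, OTULIN, TAX1BP1, COMMD1, TNF, TLR8 and the untested targets were named after their values were seen. CPM per kilobase used the deposited gene length. Exact permutation tests were two-sided. The scripts were tested on simulated data. Tried as alternatives were DESeq2 1.42.0, its size factors in edgeR, scaling to library size alone, a filter of at least 10 counts per library or none, a block on replicate number, only the groups compared, counts not divided by length and leaving out each library in turn. A floor of 3 counts marked detection, for counting error only.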

Additional observations from a re-analysis of the deposited data

Results flagged for a closer look

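The interaction term of edgeR's quasi-likelihood model, which tests whether the effect of ATRA differed between cells with and without CDK4/6i, was past the threshold for the 10 members, and this is what brought them here. The ATRA effect was larger with CDK4/6i by 0.40 on the log2 scale for NFKB1, 0.37 for NFKB2, 1.23 for REL, 0.56 for RELA, 0.53 for RELB, 1.52 for NFKBIA, 1.58 for NFKBIE, 2.41 for NFKBIZ, 0.64 for TNFAIP3 and 1.11 for BCL3. In the same test 24.5% of all genes had a called positive interaction. With library size alone the interactions of NFKB1, NFKB2, RELB and NFKBIZ were not called. The NFKBIZ value rests on groups at or below 3 counts per library without ATRA, and its call was lost with no filter, with DESeq2's size factors and without most single libraries (adjusted p up to 0.345).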

How the results depend on the processing

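Rises of the 9 members other than NFKBIZ with CDK4/6i+ATRA over each other group kept their direction and call under every alternative that tested them. NFKBIZ passed the main filter only through groups where it is high, and was not tested with at least 10 counts in every library. With library size alone, 6 interactions were called, 4 other inhibitors were called lower (1 with TMM), and REL under CDK4/6i was not called (-0.15, adjusted p = 0.0616); the median of all genes for the combination against non-treated cells moved from 0.02 to -0.25, and higher genes made up 40.5% of calls (50.2% with TMM), 36.7% against CDK4/6i (49.8%), 31.6% against ATRA (53.0%) and 18.5% of called interactions (47.5%). At least 10 counts in every library left 9 targets called higher (14 before), as fewer were tested. Without a filter 2 other inhibitors were called lower. The NFKBIZ interaction was lost with no filter (2.32, adjusted p = 0.0918) and DESeq2's size factors (2.39, adjusted p = 0.0514), and ran from 1.78 to 2.64 when single libraries were left out. The value of NFKB1 under CDK4/6i, near 0, changed sign to 0.00710 (DESeq2's size factors), 0.00709 (DESeq2), 0.0126 (library size alone), 0.0027 (at least 10 counts) and 0.00026 (replicate block), and ran from -0.0272 to 0.0137 without single libraries; those of RELA ran from -0.0264 to 0.0962 and of NFKBIZ from -0.30 to 0.57, none called. Without single libraries, 4 to 6 members were called with CDK4/6i, 4 without non-treated replicate 3. For the combination against non-treated cells, 1 gene of the kinase list was called lower without CDK4/6i+ATRA replicate 2 (2 before, MAP3K14 being lost). IKBKB lost its higher call without non-treated replicate 1, ATRA replicate 2, or CDK4/6i+ATRA replicate 1 or 2 (edgeR adjusted p up to 0.274). SHARPIN lost its lower call without non-treated replicate 1 or 2, or CDK4/6i+ATRA replicate 2 (adjusted p up to 0.258). TAB3 and CARD9 each gained a call without at least 1 library. The causes were not tested.

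Same-numbered libraries did not deviate together (correlations from -0.0702 to 0.0328 over 18 pairs), so the numbers were not read as pairs. With the replicate block 9, 6, 10, 10, 10 and 10 members were called for ATRA, CDK4/6i and the combination against non-treated cells, the combination against CDK4/6i and ATRA, and the interaction, as without it. These counts include NFKBIZ, which passed the filter only through groups where it is high.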
